A study of Mus musculus with 8 samples.

Results

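The histone genes of the mouse were taken as the protein-coding genes whose symbols in the deposited table begin with Hist and a cluster number, or with H2af, H3f or H1f. They came to 69 of the 29037 genes in the table, 59 of them clustered genes (Hist) and 10 of them variants (H2af, H3f and H1f). The rule used names alone, but it was chosen with earlier results of these data known. RNA had been sequenced from crypts of the intestine, the pits in which the stem cells of the lining divide, which were loosened with EDTA. The cKO group was 4 mice in which Tdp-43 had been knocked out conditionally, and the Ctrl group was 4 of their wild-type littermates, all 8 weeks old. The sources used here give neither the promoter that drove the deletion nor the deleted part of the gene, and do not say whether poly(A) RNA was selected.

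Histones are the proteins around which DNA is wound: H2A, H2B, H3 and H4 form the core of the nucleosome, and H1 binds the linker between nucleosomes. The clustered genes are switched on when DNA is copied, have no introns as a rule, and give RNAs that end in a stem-loop, bound by Slbp, instead of a poly(A) tail. The variant genes mostly lie apart from the clusters and mostly give polyadenylated RNAs outside S phase too. They replace core or linker histones at particular places in chromatin. The gene Tardbp encodes Tdp-43, a nuclear protein that binds RNA. In the lining of the gut, cells of the crypt divide fast, so both classes can be looked for in the same libraries.

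The stem-loop was searched for because it separates the classes by sequence and because a library made from polyadenylated RNA catches such RNAs poorly. It was looked for on the sense strand of the GENCODE M21 transcripts (GRCm38) as GG, any 2 bases, CTTTT, any base, AG, any 2 bases and CC, without a gap. It was found in 40 of 59 clustered genes (67.8%), in 1 of 10 variants (H2afx), and in 31 of 21832 other protein-coding genes (0.142%). The form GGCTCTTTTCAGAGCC was held by 22 of the 41 members with a match. Of the 19 clustered genes with no match, 13 had a longest transcript model under 550 bases. The stem-loops of a clustered gene that fell in cKO crypts, of 4 clustered genes that did not pass the test and of the variant with a match are shown, with the motif in capitals and 5 flanking bases on each side.
Hist3h2a: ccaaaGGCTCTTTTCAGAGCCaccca
Hist1h1c: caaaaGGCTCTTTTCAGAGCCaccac
Hist1h2ac: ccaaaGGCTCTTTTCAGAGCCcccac
Hist1h3c: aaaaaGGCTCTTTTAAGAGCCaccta
Hist1h4i: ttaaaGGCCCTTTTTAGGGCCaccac
H2afx: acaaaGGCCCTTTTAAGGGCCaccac
Hist3h2a, Hist1h1c and Hist1h2ac hold the commonest form, and the other 3 genes hold rarer forms. The transcript models do not all end near the loop. They run on past it for 1643 bases in Hist3h2a, 840 in Hist1h1c and 2010 in Hist1h2ac. In Hist1h3c, Hist1h4i and H2afx they run on for 74, 330 and 822 bases.

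Promoter windows of 300 bases, 250 before and 50 after the start, were read from RefSeq (GRCm38.p6) for 63 of the 69 members. Of 3 motifs searched on both strands, CCAAT was present in 45 of 54 clustered promoters (83.3%), 6 of 9 variant promoters (66.7%) and 37.9% of 27025 promoters of all genes. TATAAA was present in 32 of 54 clustered promoters (59.3%), 1 of 9 variant promoters (11.1%) and 14.2% of all promoters. The octamer ATTTGCAT was present in 10 of 54 clustered promoters (18.5%), 1 of 9 variant promoters (11.1%) and 1.75% of all promoters. Those 10 were all among the 28 promoters of clustered H2A and H2B genes, and all 28 held CCAAT. The windows of Hist1h2ac and Hist3h2a are shown, since the Hist1h2ac window also covers the stretch between that gene and Hist1h2bc, which is read the other way, and Hist1h2bc and Hist3h2a are the clustered genes that fell in cKO crypts. Capitals mark the 3 motifs on either strand. Where the strand is the opposite one, CCAAT reads ATTGG, and the octamer reads ATGCAAAT.
Hist1h2ac, chr13:23683910-23684209, minus strand: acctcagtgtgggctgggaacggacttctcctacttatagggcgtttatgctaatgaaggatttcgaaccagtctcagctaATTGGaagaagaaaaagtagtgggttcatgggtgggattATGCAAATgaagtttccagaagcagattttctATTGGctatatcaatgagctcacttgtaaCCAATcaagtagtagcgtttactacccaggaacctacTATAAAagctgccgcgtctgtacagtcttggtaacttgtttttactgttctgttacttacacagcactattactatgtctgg
Hist3h2a, chr11:58954435-58954734, plus strand: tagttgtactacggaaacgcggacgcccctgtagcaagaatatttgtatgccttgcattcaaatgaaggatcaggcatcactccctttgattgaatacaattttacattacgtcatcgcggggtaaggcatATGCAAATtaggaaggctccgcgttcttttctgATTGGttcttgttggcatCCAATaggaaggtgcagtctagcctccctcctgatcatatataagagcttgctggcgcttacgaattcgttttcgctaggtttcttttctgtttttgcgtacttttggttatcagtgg
Each window held an octamer in the reverse orientation upstream of its forward CCAAT, and the exact letters TATAAA were found in the Hist1h2ac window only. A match is a description of these letters and shows no bound factor.

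The libraries held 21517596 to 29992110 reads on genes. Values are given as normalized counts, the authors' gene counts divided by 1 factor per library. Tardbp RNA, the usual check of such labels, was higher in the libraries labelled cKO (10794 to 13269) than in those labelled Ctrl (4900.2 to 6342), with a log2 fold change of 1.09 ± 0.11 (SE) and an adjusted p of 0.00209 (limma), so a loss of Tdp-43 was not seen at the level of RNA and every direction below rests on the labels. Epithelial markers were high in every library (8 of 8 markers measured, summed level 361318 to 422249 in cKO and 376118 to 468222 in Ctrl). Of these 8, 1 rose (Krt18, log2 fold change 0.48, adjusted p = 0.0435, limma) and 1 fell (Cdx1, -0.48, adjusted p = 0.0157, limma). Neutrophil markers moved with the groups: 5 of 7 tested rose, and their summed level was 108 to 1726 in cKO and 8.52 to 147 in Ctrl, with Retnlg and Mmp8 at 0 in Ctrl 1 to 3. Of the markers of stem cells, T cells, B cells, fibroblasts and erythroid cells, 1 of 22 tested passed (Olfm4, higher in cKO). Olfm4 was a low gene here, with 16.6 to 43.8 normalized counts in cKO and 3.79 to 9.73 in Ctrl. It was the only 1 of the 5 stem cell markers above 0, with 4 below and a median log2 fold change of -0.24. The summed levels overlapped between the groups, for stem cells with 1269.5 to 2626 in cKO and 2609 to 3361 in Ctrl. The part of these cells in the histone results was not tested, and in RNA from whole crypts, fewer cells of a type and less RNA per cell cannot be told apart.

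Most clustered genes had low counts in both groups and most variants had high counts. Per kilobase of gene length, the median level over the 8 libraries was 25.6 normalized counts per kb for the clustered genes and 1240 normalized counts per kb for the variants. The sources used here give neither poly(A) selection nor the counting of reads that match several copies, and many clustered models run past the stem-loop. How far the gap in counts holds for RNA in the crypts was not tested. The highest levels per length were those of H3f3b (6371 per kb), H1f0 (5076 per kb) and H2afz (3835 per kb). Of the clustered genes, Hist1h1c (2155 per kb) and Hist1h2bc (1795 per kb) reached the levels of the variants, while the variants H1fx (14.5 per kb) and H2afy2 (9.07 per kb) lay below the clustered median. The clustered genes took 0.0211% to 0.0316% of the normalized counts of a cKO library and 0.0249% to 0.0349% of a Ctrl library. The variants took 0.179% to 0.218% in cKO and 0.188% to 0.208% in Ctrl. Within the clustered class, Hist1h1c and Hist1h2bc alone gave 74.8% to 81.9% of the normalized counts in cKO and 71.6% to 78.8% in Ctrl. Hist1h1c, Hist1h2bc and Hist2h2be were listed as clustered genes known to give polyadenylated RNA as well. Their summed level was 4139 to 6759 in cKO and 5186 to 7667 in Ctrl. The plot of level against fold change sets the members among all genes.

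**Figure D1:**
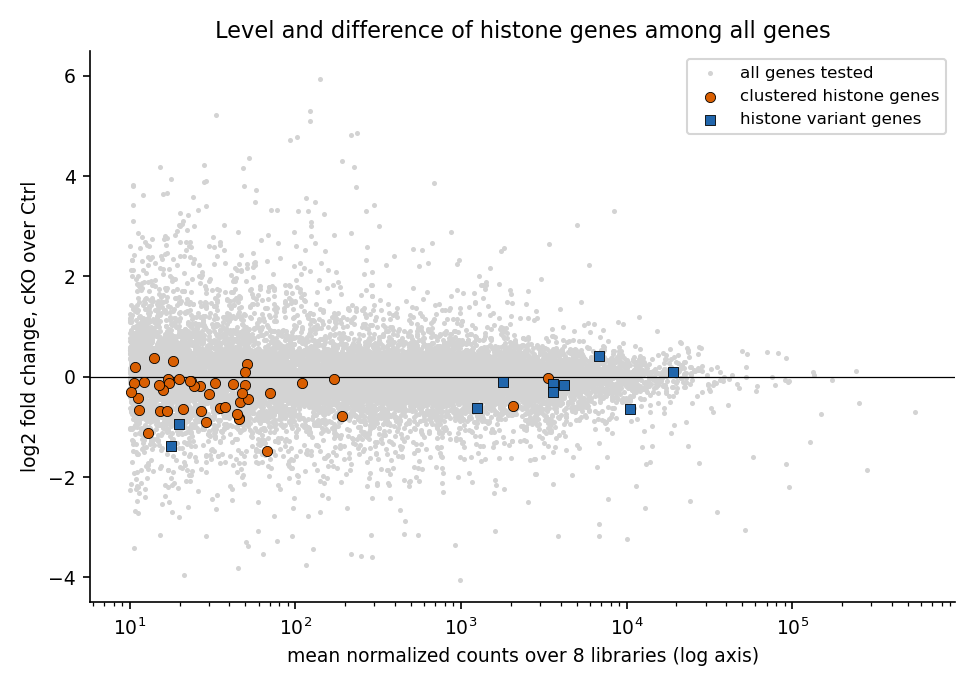
Mean normalized counts over 8 libraries (log axis) against the log2 fold change of cKO over Ctrl for the 16536 genes tested (grey), with 44 clustered histone genes (circles) and 10 histone variants (squares) on top. Most histone points lie below 0, with 39 of 44 clustered genes and 8 of 10 variants there. Hist1h1c and Hist1h2bc stand far to the right of the other clustered genes, and H1fx and H2afy2 lie among the low clustered genes.

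Of the 54 members whose mean reached 10 normalized counts, the level needed for the test, 4 were lower in cKO crypts and 0 were higher at an adjusted p under 0.05 (limma, Benjamini-Hochberg over all 16536 genes). The 4 were the clustered H2B gene Hist1h2bc, the clustered H2A gene Hist3h2a, and the linker histone variants H1f0 and H1fx. Over all genes tested 11.7% were called, 5.65% as higher and 6.07% as lower, beside which stand 2 of 44 clustered genes and 2 of 10 variants lower. At an unadjusted p under 0.05, 10 clustered genes were lower and 0 higher, and 5 variants were lower and 1 higher, against 14.5% and 13.8% of all genes. In edgeR's quasi-likelihood test on the recovered reads, the same 4 members were lower and 0 were higher (5.53% and 5.97% of all genes). DESeq2 called 8 lower and 1 higher (9.04% and 9.15% of all genes), adding H2afv, Hist1h2ac, Hist1h2bg and Hist1h2bh to the lower side and H2afz to the higher. The authors' deposited table, with an adjusted p under 0.05, also had 8 members lower and 1 higher, namely the 9 that DESeq2 called. Its shares over all 29037 genes, low ones included, were 5.06% lower and 5.02% higher. Among the 16536 genes tested here, it had 1437 lower and 1390 higher.

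The direction of the members was more uniform than their calls. The log2 fold change was below 0 in 39 of 44 clustered genes (88.6%), with a median of -0.29 and a range of -1.48 to 0.37, and in 8 of 10 variants (80.0%), with a median of -0.23 and a range of -1.38 to 0.41. Over all genes tested, 50.7% were below 0 and the median was -0.01. Genes of low level in general did not share this direction: of all genes with a mean of 10 to 50 normalized counts, 47.3% were below 0 and the median was 0.05, while 31 of 35 clustered genes in that range were below 0 with a median of -0.27. The 4 cKO libraries all lay below the 4 Ctrl libraries for 7 of 44 clustered genes and 5 of 10 variants, and all above for 0 clustered genes and 1 variant (H3f3b). Of all genes, 10.3% were lower and 9.54% higher without overlap. Values were not lower in every member: Hist1h2ab, Hist1h2ai, Hist1h2bj, Hist1h3c and Hist1h3h among the clustered genes, and H2afz and H3f3b among the variants, were above 0, none of them past the threshold. The 15 members under the level for the test, all clustered, had means of 0.367 to 9.75 normalized counts, 9 with a lower and 6 with a higher mean in cKO. With these included in the fit, the clustered median was -0.20. Fold changes are on the log2(value + 1) scale, which understates the change of low genes.

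**Figure D2:**
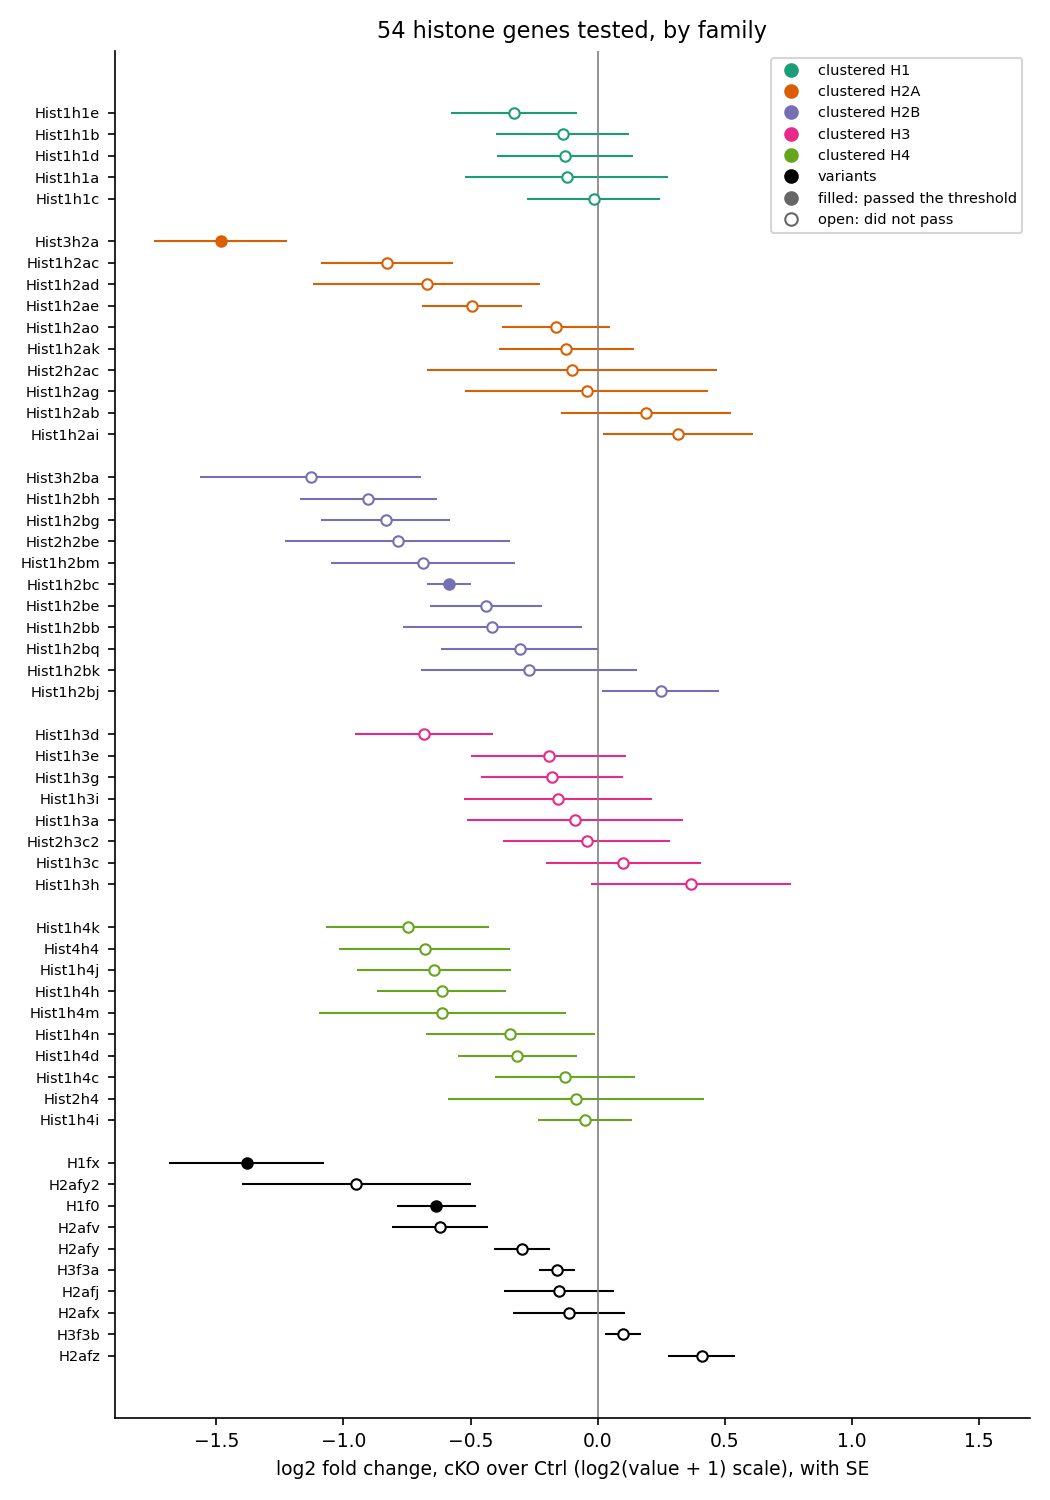
Log2 fold change of cKO over Ctrl on the log2(value + 1) scale with its standard error (n = 4 libraries per group) for the 54 histone genes tested, ordered within each family. Filled points passed an adjusted p of 0.05 (Hist3h2a, Hist1h2bc, H1fx and H1f0), all 11 H2B genes but Hist1h2bj and all 10 H4 genes lie below 0, and the 5 clustered H1 genes lie between -0.33 and -0.02.

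The linker histones were divided between the clustered genes and the variants. H1f0, a linker histone known from cells that have stopped dividing, was the most abundant of the linker genes (ENSMUSG00000096210, chr15:79028450-79030504, plus strand, GRCm38). It had 5962, 8579.7, 8333 and 10070.2 normalized counts in cKO 1 to 4, against 12091, 11627, 12047 and 14747 in Ctrl 1 to 4. Every cKO library was below every Ctrl library, and the log2 fold change was -0.64 ± 0.16 (SE), with an adjusted p of 0.0321 (limma). The call was lost without cKO 3 or without any 1 of the 4 Ctrl libraries (adjusted p up to 0.0836). The antisense gene Gm49544 shares 163 exon bases with H1f0 and had 0 to 4.88 normalized counts in cKO and 6.63 to 14.7 in Ctrl, both far below the level of H1f0.

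H1fx, a variant linker histone, was a low gene here (ENSMUSG00000044927, chr6:87980421-87981637, minus strand). It had 8.22, 6.83, 14.1 and 8.83 normalized counts in cKO 1 to 4, against 20.7, 27.3, 32.2 and 23.1 in Ctrl 1 to 4. The groups did not overlap, and the log2 fold change was -1.38 ± 0.30 with an adjusted p of 0.0222 (limma). The call was lost without cKO 1 or 4 or without Ctrl 2, 3 or 4 (adjusted p up to 0.0690). Its exons overlap those of Gm5577 on the opposite strand over 213 bases and those of Gm47286 on the same strand over 24 bases. The sources used here do not say whether reads were counted by strand.

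None of the clustered linker genes passed, and their difference from the linker variants was not tested. Hist1h1c, the clustered H1 gene with the highest level, had 2856, 4779.8, 2349 and 3379.7 normalized counts in cKO 1 to 4, against 3447, 2731, 2447 and 4908 in Ctrl 1 to 4. The groups overlapped over most of their range, and the log2 fold change was -0.02 ± 0.26 (adjusted p = 0.976, limma), with a sign that turned to 0.07 when values were rescaled to equal library totals. Hist1h1d and Hist1h1e, both main clustered H1 genes, had log2 fold changes of -0.13 (adjusted p = 0.793) and -0.33 (adjusted p = 0.431), and without cKO 3 that of Hist1h1e was -0.15. All 5 clustered H1 genes tested were below 0 with a median of -0.13. Their summed level was 2518 to 4981 in cKO and 2706 to 5199 in Ctrl, a ratio of the means of 0.980. Hist1h1e shares 450 exon bases with Hist1h2be on the same strand, so reads of that stretch cannot be assigned to either.

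Hist3h2a, an H2A gene of the small Hist3 cluster, had the largest fold change of the members (ENSMUSG00000078851, chr11:58954685-58956830, plus strand). It had 33.8, 52.7, 28.1 and 28.5 normalized counts in cKO 1 to 4, against 130.2, 97.7, 79.6 and 92.5 in Ctrl 1 to 4. The highest cKO library was below the lowest Ctrl library. The log2 fold change was -1.48 ± 0.26 with an adjusted p of 0.0109 (limma), and the call held in each of the 20 other settings (adjusted p 2.32e-05 to 0.0349). The gene shares 708 exon bases with Trim17 on the same strand, which had 11.7 to 26.5 normalized counts in cKO and 7.12 to 18.0 in Ctrl, a log2 fold change of 0.86 that did not pass (adjusted p = 0.206). The sources used here do not say how reads of the shared stretch were counted. Their part in the values of Hist3h2a and Trim17 was not tested. The neighbour of Hist3h2a in the cluster is the H2B gene Hist3h2ba. It had 8.22, 11.7, 9.04 and 2.94 normalized counts in cKO, against 24.3, 20.0, 16.1 and 10.7 in Ctrl, and a log2 fold change of -1.13 (adjusted p = 0.126). For Hist3h2ba, 1 cKO library lay above the lowest Ctrl library.

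The other clustered H2A genes were between -0.83 and 0.32 on the log2 scale. Hist1h2ac, named like Hist3h2ba after its values were seen, had 28.3, 42.9, 28.1 and 30.4 normalized counts in cKO and 54.8, 39.9, 72.0 and 69.4 in Ctrl. The groups overlapped at cKO 2 and Ctrl 2, and the log2 fold change of -0.83 ± 0.26 did not pass (adjusted p = 0.0708, limma) except without cKO 2 and with DESeq2. Over the 14 clustered H2A genes, the summed level was 233, 261, 258 and 258 in cKO 1 to 4, against 377, 342, 397 and 366 in Ctrl 1 to 4. The sums did not overlap and their ratio was 0.681. Without Hist3h2a, the sums still did not overlap, at 199 to 229.9 in cKO and 245 to 317 in Ctrl, with a ratio of 0.801.

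Hist1h2bc, an H2B gene known from differentiated human cells to give a polyadenylated RNA as well, had the smallest adjusted p of the members (ENSMUSG00000018102, chr13:23684199-23692908, plus strand). It had 1489.8, 1821, 1657 and 1673 normalized counts in cKO 1 to 4, against 2722, 2309, 2514 and 2416 in Ctrl 1 to 4. Each group held close together and the groups were well apart. The log2 fold change was -0.59 ± 0.09 with an adjusted p of 0.00684 (limma), and the call held in each of the 20 other settings (adjusted p 4.57e-07 to 0.0270). No stem-loop motif was found in its transcript models. The window shown for Hist1h2ac thus lies between a gene that fell and a gene whose lower value in cKO did not pass.

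**Figure D3:**
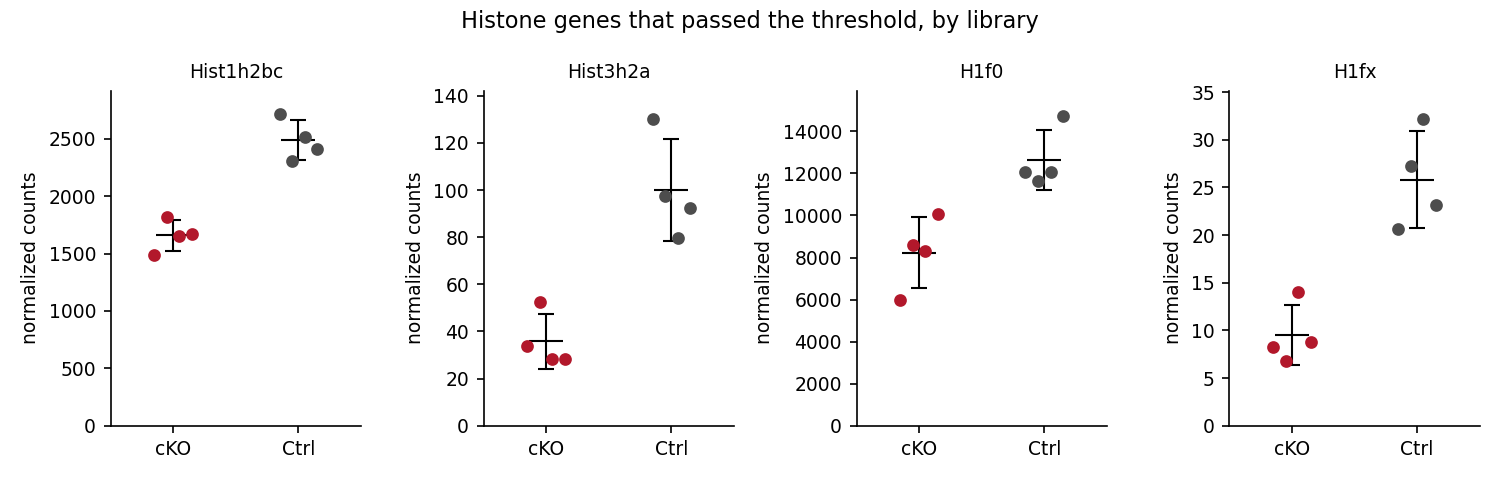
Normalized counts in each library (points) of the 4 histone genes that passed the threshold, cKO left of Ctrl, with the mean and SD of 4 libraries per group (lines). In each panel the cKO points lie below all the Ctrl points, from 1489.8 to 1821 against 2309 to 2722 for Hist1h2bc and from 6.83 to 14.1 against 20.7 to 32.2 for H1fx.

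Of the 11 clustered H2B genes tested, Hist1h2bc included, 10 were below 0 and the median was -0.59, and none of the other 10 passed. Hist2h2be, an H2B gene of the Hist2 cluster, had 56.6, 158, 134 and 232 normalized counts in cKO 1 to 4, against 164, 146, 302 and 343 in Ctrl 1 to 4. Its groups overlapped, and the log2 fold change of -0.79 ± 0.44 did not pass (adjusted p = 0.282, limma) and was -0.39 without cKO 1. Hist1h2bg had 27.5 to 40.0 normalized counts in cKO and 42.0 to 81.5 in Ctrl, a log2 fold change of -0.83 (adjusted p = 0.0625). Hist1h2bh had 12.7 to 24.6 in cKO and 32.6 to 43.6 in Ctrl, a log2 fold change of -0.90 (adjusted p = 0.0609). Both were named after their values were seen, and in both the groups did not overlap. Hist1h2be likewise had all cKO values (31.2 to 52.0) below all Ctrl values (53.1 to 66.2), with a log2 fold change of -0.44 (adjusted p = 0.228). The 16 clustered H2B genes summed to 1769 to 2195 in cKO and 2764 to 3196 in Ctrl without overlap, a ratio of 0.669. Without Hist1h2bc the ratio was 0.679 but the sums overlapped, at 279 to 489.7 in cKO and 455 to 661 in Ctrl.

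Of 8 clustered H3 genes tested, 6 were below 0, the median was -0.12 and none passed. Hist1h3c, the highest of them, had 52.9, 29.3, 50.2 and 79.5 normalized counts in cKO 1 to 4, against 57.2, 44.1, 48.3 and 38.2 in Ctrl 1 to 4, with a log2 fold change of 0.10 ± 0.31 (adjusted p = 0.858, limma). Its cKO values spread to either side of all the Ctrl values. The summed level of the 10 clustered H3 genes was 153 to 269.9 in cKO and 195 to 245 in Ctrl, a ratio of 0.955.

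All 10 clustered H4 genes tested were below 0, with a median of -0.48, yet none passed. Hist1h4i, the H4 gene with the highest level, had 182, 167, 182 and 139 normalized counts in cKO 1 to 4, against 232, 155, 143 and 169.9 in Ctrl 1 to 4, with a log2 fold change of -0.05 ± 0.19 (adjusted p = 0.887, limma). Only the value of Ctrl 1 lay above the cKO range, and with values rescaled to equal library totals the sign was reversed (0.03). At the other end, Hist1h4k and Hist4h4, named after their values were seen, had log2 fold changes of -0.75 (adjusted p = 0.163) and -0.68 (adjusted p = 0.222). The 13 clustered H4 genes summed to 372 to 474 in cKO and 442 to 689 in Ctrl, a ratio of 0.805 with overlap.

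**Figure D4:**
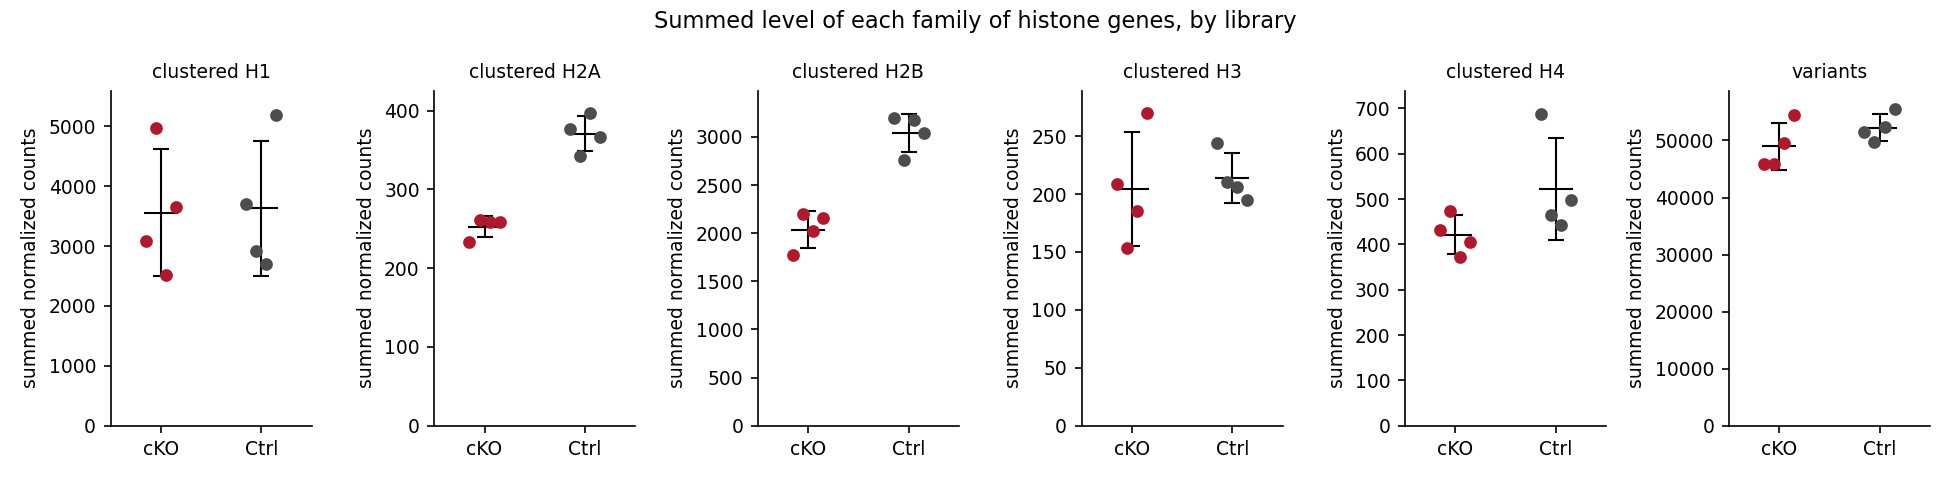
Summed normalized counts of each family of histone genes in each library (points), cKO left of Ctrl, with the mean and SD of 4 libraries per group (lines). The groups are apart for clustered H2A (233 to 261 against 342 to 397) and clustered H2B (1769 to 2195 against 2764 to 3196) and overlap for H1, H3, H4 and the variants.

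Summed over all 59 clustered genes, the level was 5729.9, 8064, 5354 and 6754 in cKO 1 to 4, against 8211, 6700.5, 6927 and 9299.6 in Ctrl 1 to 4. The sums overlapped and their ratio was 0.832. Without the dominant Hist1h1c and Hist1h2bc, the ratio was 0.771, and the sums of 1348 to 1702 in cKO and 1660.4 to 2043 in Ctrl overlapped at 1 library of each group. By cluster, Hist1 on chromosome 13 had 37 of 51 genes tested with a median of -0.27, and Hist2 had 4 of 5 with a median of -0.09. Both genes of Hist3 were tested, with a median of -1.31, and Hist4 consists of Hist4h4. The variant H2afj lies close to Hist4h4 on chromosome 6.

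Histone genes of a family are near copies. The share of each member's sequence that recurs in transcripts of any other gene was therefore counted in words of 50 bases. Such words include exons that overlap another gene, as those of Hist3h2a do with Trim17 over 708 bases. Of 27 tested clustered genes with under 50% of words shared, 26 were below 0 with a median of -0.44, and both called genes were among them. Of 17 with 50% or more, 13 were below 0 with a median of -0.16 and none was called. Hist1h2bc shared 30.1% and Hist3h2a 31.5% of their words, while H1f0 and H1fx shared 0%. The sources used here do not say how reads that match several copies were counted, so the values of the highly shared genes are uncertain. Clustered genes were also split by their models: in the 16 tested whose model runs over 200 bases past the stem-loop, 16 were below 0 with a median of -0.32 and 1 was called. In the 17 that end within 200 bases of it, 14 were below 0 with a median of -0.34 and none was called. In the 11 with no stem-loop, 9 were below 0 with a median of -0.16 and 1 was called.

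Among the H2A variants, the H2A.Z genes had fold changes of opposite sign. H2afz, the more abundant of them, had 8321, 5881, 7952 and 9070.3 normalized counts in cKO 1 to 4, against 5915, 6406, 5432 and 5509.5 in Ctrl 1 to 4. Its cKO values were above all Ctrl values except in cKO 2, and the log2 fold change of 0.41 ± 0.13 did not pass (adjusted p = 0.0785, limma), although it did without cKO 2 (log2 fold change 0.54). H2afv had 659, 1072, 1068 and 1179 normalized counts in cKO 1 to 4, against 1212, 1439, 1646 and 1731 in Ctrl 1 to 4. All its cKO values were below all Ctrl values, and the log2 fold change was -0.62 ± 0.19 (adjusted p = 0.0659). Per length, H2afv made up 7.93%, 16.5%, 12.7% and 12.4% of H2A.Z RNA in cKO 1 to 4, against 18.2%, 19.6%, 24.8% and 25.5% in Ctrl 1 to 4. These shares did not overlap, with means of 12.4% ± 3.5 in cKO and 22.0% ± 3.6 in Ctrl (SD, n = 4 each). The length used is that of the whole gene model, 1776 bases for H2afz, whose longest transcript has 1069. For H2afv both are 1633 bases. The size of the shares depends on this choice, while their order among the libraries does not.

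Both genes of H3.3, the H3 variant laid down outside replication, were near the top of the members in level and encode the same protein. H3f3a had 3696, 3904, 4149.5 and 4026 normalized counts in cKO 1 to 4, against 4247, 4295, 4629 and 4446 in Ctrl 1 to 4, with a log2 fold change of -0.16 ± 0.07 (adjusted p = 0.174, limma). H3f3b had 19571, 19259, 19170.2 and 20436 normalized counts in cKO, against 18343, 17341, 18729 and 18836 in Ctrl, with a log2 fold change of 0.10 ± 0.07 (adjusted p = 0.403). In neither gene did the groups overlap, with H3f3a lower and H3f3b higher in every cKO library, and neither gene passed. H3f3a accordingly made up 13.8%, 14.7%, 15.5% and 14.3% of H3.3 RNA per length in cKO 1 to 4, against 16.4%, 17.4%, 17.3% and 16.7% in Ctrl 1 to 4. Exons of H3f3a overlap those of H3f3aos and Gm17275 on the opposite strand.

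**Figure D5:**
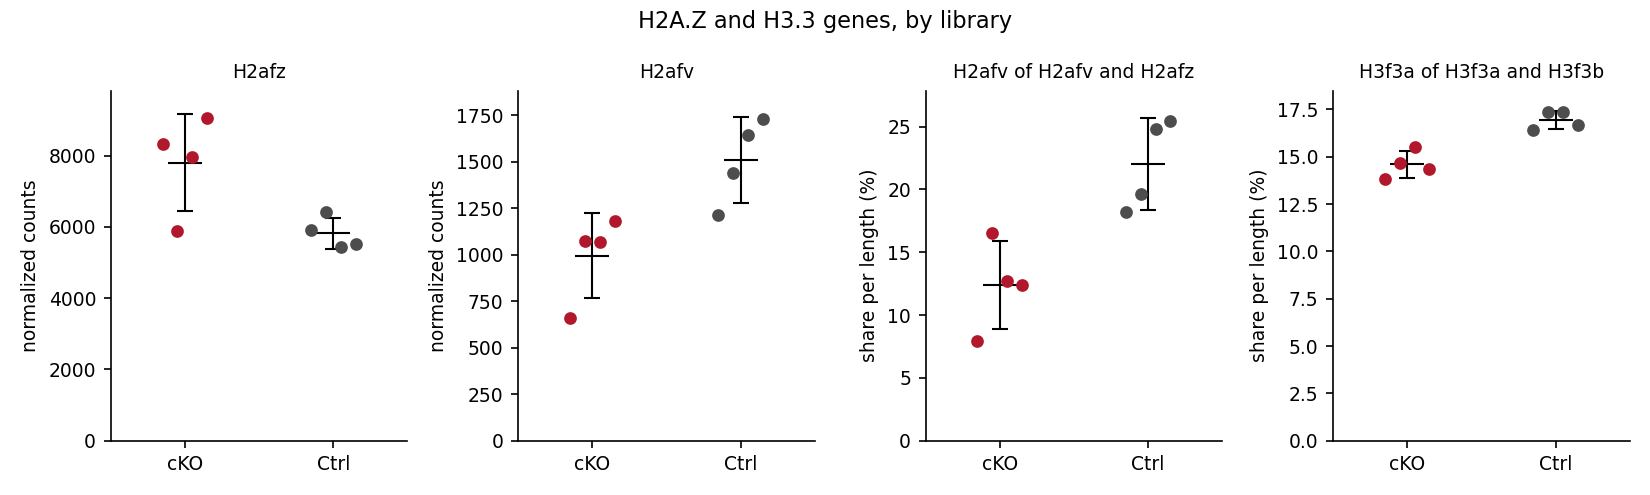
Normalized counts of H2afz and H2afv, and shares per gene length of H2afv within H2A.Z RNA and of H3f3a within H3.3 RNA, in each library (points), cKO left of Ctrl, with the mean and SD of 4 libraries per group (lines). The cKO shares of 7.93% to 16.5% and 13.8% to 15.5% lie below all Ctrl shares of 18.2% to 25.5% and 16.4% to 17.4%.

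The macroH2A genes, whose proteins carry a large extra domain and are known from silent chromatin, lay below 0. H2afy had 3581, 2623, 3616 and 3117 normalized counts in cKO 1 to 4, against 4198, 3889, 4026 and 3681 in Ctrl 1 to 4, a log2 fold change of -0.30 ± 0.11 without overlap (adjusted p = 0.115, limma). H2afy2 was low, with 4.56, 17.6, 17.1 and 15.7 normalized counts in cKO and 15.8, 31.5, 21.8 and 33.8 in Ctrl, a log2 fold change of -0.95 ± 0.45 (adjusted p = 0.203). Its cKO range reached into the Ctrl range. H2afx, whose protein is phosphorylated at DNA breaks, had 1696, 1024, 2045 and 2231 normalized counts in cKO and 1728, 2079, 1690.1 and 1775 in Ctrl. Apart from cKO 2, the lowest of all 8, the groups ran together, and the log2 fold change was -0.11 ± 0.22 (adjusted p = 0.784). H2afj had a log2 fold change of -0.15 ± 0.22 (adjusted p = 0.698), with 2413 to 4343 normalized counts in cKO and 2545 to 4658 in Ctrl. The 10 variants together summed to 45849 to 54496 in cKO and 49681 to 55440.2 in Ctrl, a ratio of 0.937.

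Genes that make and handle histone RNA were looked at beside the members. Of 36 genes for histone RNA transcription, 3′ end formation and turnover, 1 rose and 1 fell, and the median log2 fold change was 0.18. Cpsf2, a subunit of the cleavage complex, rose (0.46, adjusted p = 0.0351, limma), and Mif4gd, which binds Slbp and helps histone mRNA translation, fell (-0.39, adjusted p = 0.0137). Slbp had a log2 fold change of 0.09 (adjusted p = 0.756), and the coactivators of histone transcription Npat and Casp8ap2 had 0.26 (adjusted p = 0.254) and 0.34 (adjusted p = 0.205). The U7 snRNP proteins Lsm10 and Lsm11 had 0.06 (adjusted p = 0.791) and -0.20 (adjusted p = 0.219). None of these 5 passed.

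Of 30 histone chaperones and carriers, 1 rose, 1 fell and the median was 0.12. Ipo4, an importin that carries H3 and H4, rose (0.44, adjusted p = 0.0423, limma), and Tonsl, a reader of new H4, fell (-0.50, adjusted p = 0.0303). The H3.3 chaperones Hira, Daxx and Atrx had log2 fold changes of 0.00, -0.07 and -0.05, and Asf1b and Chaf1a, which serve replication-coupled assembly, had 0.52 (adjusted p = 0.234) and 0.48 (adjusted p = 0.162). The calls of Cpsf2, Ipo4 and Tonsl were each lost in 6 of the 8 fits with 1 library left out, and that of Mif4gd in 0.

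Genes of DNA replication, with which clustered histone genes are switched on, did not share the members' direction. Of 46 tested, 41 were above 0 and 5 below, with a median of 0.22, but only Ccne1, the cyclin of S phase entry, rose (1.03, adjusted p = 0.0295, limma) and only Rfc2, a clamp loader subunit, fell (-1.24, adjusted p = 0.0106). The call of Ccne1 was lost in 5 of the 8 fits with 1 library left out (without cKO 1, 3 or 4 or Ctrl 3 or 4). Their summed level was 64272, 38145, 56512 and 52473 in cKO 1 to 4, against 56066, 50061, 41184 and 36094 in Ctrl 1 to 4. cKO 2 was the lowest of the cKO libraries and Ctrl 4 the lowest of all, and the groups overlapped. Pcna, Mcm2 and the proliferation marker Mki67 had 0.25 (adjusted p = 0.451), 0.45 (adjusted p = 0.173) and -0.10 (adjusted p = 0.820). Of 24 genes of mitosis none passed in either direction, with a median of 0.12. Without cKO 2, 9 of 36 genes for histone RNA processing, 6 of 30 chaperones, 6 of 46 replication genes and 2 of 24 mitosis genes were called higher, beside 8.17% of all genes in that fit. In the same fit 1, 2, 1 and 0 genes of those lists were called lower, beside 8.4% of all genes, and the clustered median was -0.27. Of 11 tested genes that brake the cell cycle or respond to p53, Mdm2 rose and Cdkn1b, Cdkn2b and Rbl2 fell (chosen for naming after their values were seen), and Cdkn1a, the inhibitor known from p53 responses, had a log2 fold change of 0.46 that did not pass (adjusted p = 0.170).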

How the data were processed

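RNA-seq libraries of intestinal crypts from 4 cKO and 4 Ctrl mice were compared, grouped by sample title. Per the submitters' processing notes, CASAVA, HISAT2 (2.0.5) and featureCounts (1.5.0-p3) were used. A genome build and a strand setting were not given in the sources used here, but the coordinates of all 69 members equal those of GENCODE M21 on GRCm38. The deposited signal values are gene counts that the authors divided by 1 library-wide factor: whole reads were recovered for 100% of values in every library (tolerance 0.0001 reads). The authors' deposited table also holds their log2 fold changes and p-values, from a test it does not name.

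Genes with a mean of at least 10 were tested with limma 3.58.1 (trend and robust, two-sided) on log2(value + 1), with group as the only term and Benjamini-Hochberg adjustment over 16536 genes at 0.05. edgeR 4.0.16 (TMM and RLE), DESeq2 1.42.0 and limma-voom were run on the recovered reads, besides other pseudocounts, filters and scalings, protein-coding genes alone, a replicate block and each library left out, 20 settings in all. The libraries of a group differed beyond sampling noise (smallest chi-square per degree of freedom 26.1).

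Members and lists were chosen with earlier results of these data known. Named members are those that passed, every variant, the 8 clustered genes with the highest means and the highest of each family. Others named are said to be named after their values were seen, or are given to account for the members on 1 side of 0, an overlap or a marker list. From the lists, called genes and a set of core genes are named. Sums and shares carry no test. R 4.3.3, Python 3.11.15, pandas 2.3.3, numpy 2.4.6 and matplotlib 3.10.9 were used.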

Additional observations from a re-analysis of the deposited data

Results flagged for a closer look

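In 42 groups of 4 values (19 histone genes and the sums of both classes, in cKO and in Ctrl), a library whose gap to the nearest other, as a part of the range, exceeded Dixon's critical value was looked for, a limit that chance passes in about 5% of groups. It was passed in 2. H1f0 had 14746.9 normalized counts in Ctrl 4, above the other Ctrl libraries at 11627 to 12091, and without Ctrl 4 the call of H1f0 was lost (log2 fold change -0.56). H2afy2 had 4.56 normalized counts in cKO 1, below the other cKO libraries at 15.7 to 17.6, and without cKO 1 its log2 fold change, which did not pass, was -0.53.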

How the results depend on the processing

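Hist1h2bc and Hist3h2a were called lower in all 20 other settings, and in no setting was a clustered gene called higher. With DESeq2, 5 clustered genes were lower, 1 variant was higher and 1509 genes of all were higher. With a mean of at least 50, 1 variant was lower. With 1 library left out at a time, 2 to 4 clustered genes were lower (4 without cKO 2), 0 to 2 variants were lower (0 without Ctrl 2, 3 or 4) and 0 to 1 variants were higher (1 without cKO 2), while of all genes 379 to 1347 were higher and 390 to 1385 lower. The clustered median ranged over -0.40 to -0.24 and the variant median over -0.32 to -0.19 in these fits, the ratio of clustered sums over 0.764 to 0.890 and that of variant sums over 0.902 to 0.957. Rescaling to equal library totals moved the median of all genes to 0.07 and reversed the small fold changes of Atrx (0.032), Daxx (0.0094), Hist1h1c (0.067) and Hist1h4i (0.033), none of them past the threshold. Leaving out 1 library reversed others that were close to 0, with ranges of -0.12 to 0.0076 for Atrx, -0.26 to 0.089 for Daxx, -0.33 to 0.00085 for H2afj, -0.25 to 0.13 for H2afx, -0.082 to 0.11 for Hira, -0.20 to 0.18 for Hist1h1c, -0.29 to 0.041 for Hist1h1d, -0.12 to 0.35 for Hist1h3c, -0.14 to 0.095 for Hist1h4i, -0.21 to 0.12 for Mki67 and -0.013 to 0.19 for Slbp. Without a change of sign, the range was -0.47 to -0.15 for Hist1h1e, -0.53 to -0.29 for Hist1h2be, -1.07 to -0.39 for Hist2h2be, -0.82 to -0.42 for Hist4h4 and -1.15 to -0.53 for H2afy2, none of them past the threshold. The cause was not tested.

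With the replicate number as a block, the clustered median was -0.29 and the variant median -0.23, and 2 clustered genes and 3 variants were lower, H2afv having joined them. Nothing in the labels says that a number pairs mice. The deviations of libraries with the same number correlated at 0.318, -0.106, 0.123 and 0.323 for numbers 1 to 4. For numbers 1, 3 and 4 the best partner was the same number, a hint of pairing from the data, but for number 2 it was number 4, so the fit without the block was kept. At this depth, clustered genes with means near 10 normalized counts had wide standard errors (0.40 on the log2 scale for Hist1h1a), and a miss of the threshold there does not show that the groups were alike.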
